A study of Homo sapiens with 4 samples.

Results

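The DNAJ or HSP40 proteins are the co-chaperones that carry a J domain, the module with which they bind HSP70 chaperones and speed up the hydrolysis of ATP, so that HSP70 closes on its client protein. They are sorted by domain layout into the DNAJA, DNAJB and DNAJC subfamilies, of which DNAJA and DNAJB members mostly deliver unfolded proteins to HSP70 and many DNAJC members recruit HSP70 to one task, such as translation, clathrin uncoating or import into mitochondria. Members were taken as the protein-coding genes whose symbol begins with DNAJA, DNAJB or DNAJC. The rule found 45 of the 60675 genes in the count tables, namely 4 DNAJA, 12 DNAJB and 29 DNAJC genes.

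Expression of these genes was compared in the prostate cancer line LNCaP, whose growth responds to androgen, kept in medium depleted of hormones and given 1 nM R1881, a synthetic androgen, for 72 h. One group of 2 cultures received R1881 and vehicle (DMSO), and the other group of 2 received R1881 and 50 µM CPI-455, an inhibitor of the KDM5 histone demethylases. Androgen was thus present in both groups, the model is a single cell line, and the methods call the cultures biological replicates without saying how they were grown. The comparison asks how the transcript levels of the co-chaperones differ when the demethylase inhibitor is added to androgen.

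The vehicle libraries held 19623553 and 20690819 counted fragments and the CPI-455 libraries 9522920 and 5401588, so low members were measured less precisely with CPI-455. The 10 highest genes took 3.45% of the fragments of either vehicle culture but 9.57% and 11.0% after CPI-455, and the part of these differences in depth and make-up in the results was not tested except where a thinned comparison is given. All 10 luminal prostate markers, KLK3 among them, were detected in every library, and their summed CPM was 886 to 961 under vehicle but 387 to 444 under CPI-455. Of the 10, 8 had a log2 fold change of CPI-455 over vehicle below 0, and KLK3 went from a mean of 381 to 121 CPM. KLK2 went the other way, from 74.3 to 110 CPM, and EPCAM was not lower, at 3.80 and 4.95 CPM. The 3 basal epithelial, 4 leukocyte and 3 endothelial markers had summed levels of at most 1.24, 0.900 and 1.56 CPM in any library and the 5 fibroblast markers reached 5.21 CPM with vehicle and 10.7 CPM with CPI-455, mostly from COL1A1, while KRT5, LUM and MS4A1 were at 0 in every library. The counts come from bulk RNA, in which fewer cells that express a gene and less RNA per cell cannot be told apart.

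Of the 45 members, 41 passed the filter on low counts and were tested. Calls needed a change of 2-fold or more and an FDR under 0.05 by the quasi-likelihood test of edgeR, adjusted over all 17600 genes tested. Fold changes are given as CPI-455 over vehicle, so a positive log2 value means higher expression with the inhibitor. With CPI-455, 6 members were called higher and 8 were called lower, where 21.0% of all genes tested were called higher and 21.3% lower (42.4% either way). Among the 13813 protein-coding genes tested, 15.6% were called higher and 24.4% lower (40.0% either way). The split of 6 and 8 became 7 and 6 with upper-quartile scaling and 5 and 12 with library totals alone. Over all 17600 genes, 4298 were called higher and 3096 lower with upper-quartile scaling, and 3128 and 4563 with library totals. The 6 and 8 members are 14.6% and 19.5% of those tested, shares that lie under the background of all genes and give no result about the family as a whole. Without a minimum fold change, 10 members were higher and 15 lower at an FDR below 0.05, against 29.8% and 32.8% of all genes and 26.3% and 38.7% of protein-coding genes, and 16 did not pass. The members moved both ways and spanned log2 fold changes from -2.46 for DNAJC3 to 3.84 for DNAJB1 around a median of -0.37. The median was -0.04 over all genes tested and -0.21 over the protein-coding ones.

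**Figure D1:**
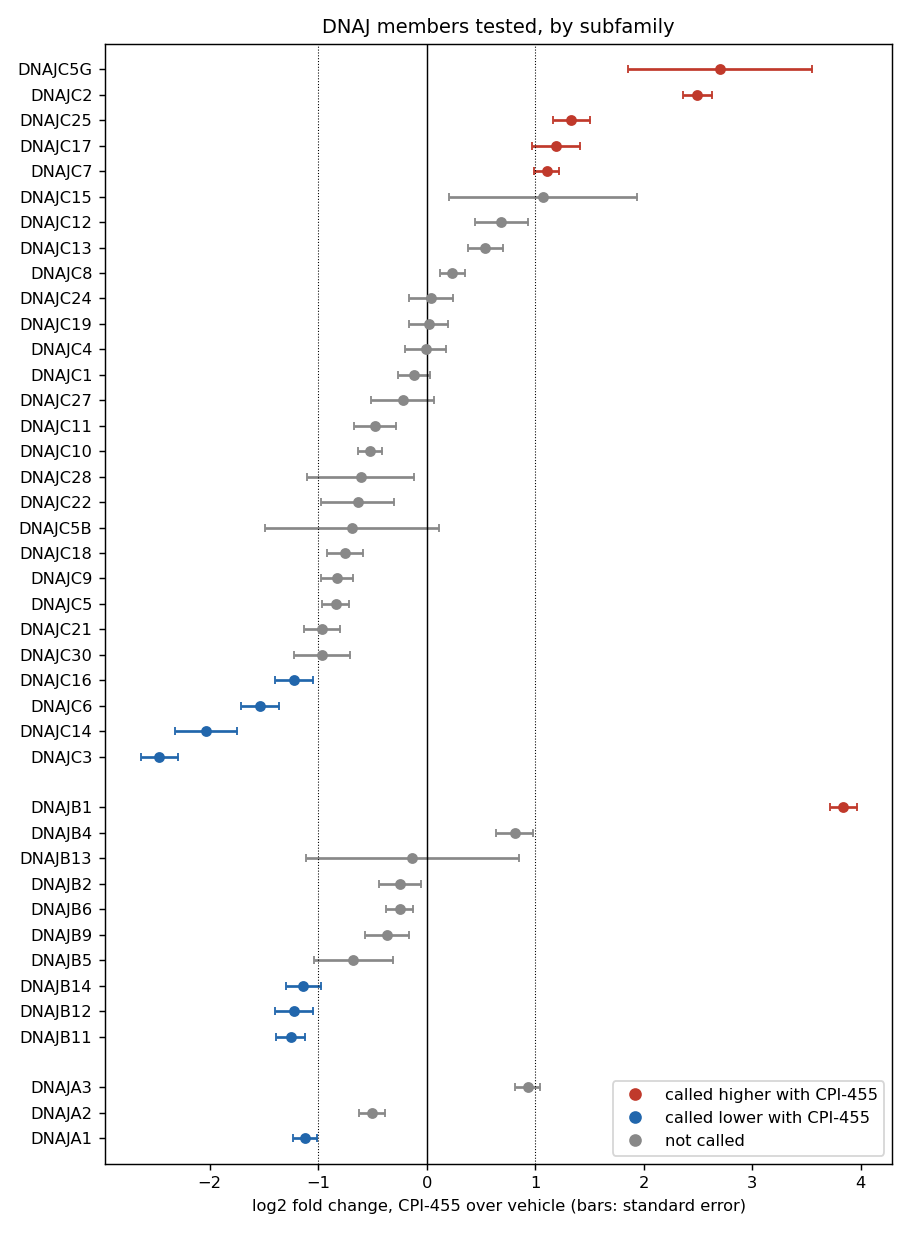
The log2 fold change of CPI-455 over vehicle on the x axis is shown for each of the 41 tested members, grouped by subfamily, with bars for the standard error and dotted lines at a 2-fold change. DNAJB1 at 3.84 stands to the right of all other members, and DNAJC3 at -2.46 lies farthest to the left.

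By subfamily, 3 of 4 DNAJA members were tested, 1 was called lower and none was called higher, and the subfamily median was -0.50 on the log2 scale. Of 12 DNAJB members 10 were tested, 1 was called higher and 3 lower, and the median was -0.31. Of 29 DNAJC members 28 were tested, 5 were called higher and 4 lower, and the median was -0.35. Beside these stand 21.0% called higher and 21.3% lower among all genes, and 15.6% and 24.4% among protein-coding genes. The medians there were -0.04 and -0.21, and the counts of called members give no result by subfamily. With the trend of expression on exon features removed, the DNAJA median was -0.072, and without CPI-455 replicate 2, with DNAJA4 then tested too, it was -0.90. Without CPI-455 replicate 1 the DNAJA, DNAJB and DNAJC medians were -0.79, -0.61 and -0.12. The median of each subfamily was below 0, and each subfamily also held a member that passed the FDR in the direction of higher expression.

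DNAJB1, the heat-inducible partner of cytosolic HSP70 in refolding and in the removal of aggregates, rose more than any other member. The gene, ENSG00000132002, lies on the reverse strand of chromosome 19 of GRCh38 from 14514770 to 14529770. Its counts were 3557 and 3541 in the vehicle libraries and 19514 and 12818 in the CPI-455 libraries, although the latter were of lower depth. Both CPI-455 cultures stood far above both vehicle cultures, at 2368 ± 246 normalised CPM (SD, n = 2) against 165 ± 4.43 (SD, n = 2). On the log2 scale expression rose by 3.84 (standard error, SE, 0.12, FDR = 2.74e-07, edgeR's quasi-likelihood test), which is a 14.3-fold rise. It was called in all 17 other settings (other scalings, filters, tests and trend corrections, and each library left out), with values of 3.65 to 4.02.

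DNAJB1 also took a larger share of the family's fragments with CPI-455. In the vehicle libraries DNAJB1 took 6.60% (95% Wilson interval 6.40% to 6.82%) and 6.10% (5.91% to 6.30%) of all fragments counted on the 45 members. In the CPI-455 libraries it took 50.5% (50.0% to 51.0%) and 52.4% (51.8% to 53.1%), intervals that cover counting error only. The summed normalised CPM of the family was 2603 ± 74.8 under vehicle against 4597 ± 353 under CPI-455 (SD, n = 2 each), a ratio of 1.77. Without DNAJB1 the sums were 2438 ± 79.2 (SD, n = 2) and 2229 ± 108 (SD, n = 2), a ratio of 0.914. The summed level of the DNAJC genes, 1448 ± 41.4 CPM with vehicle and 1447 ± 112 CPM with CPI-455 (SD, n = 2 each), differed by less than the spread between replicates, although single members moved both ways.

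**Figure D2:**
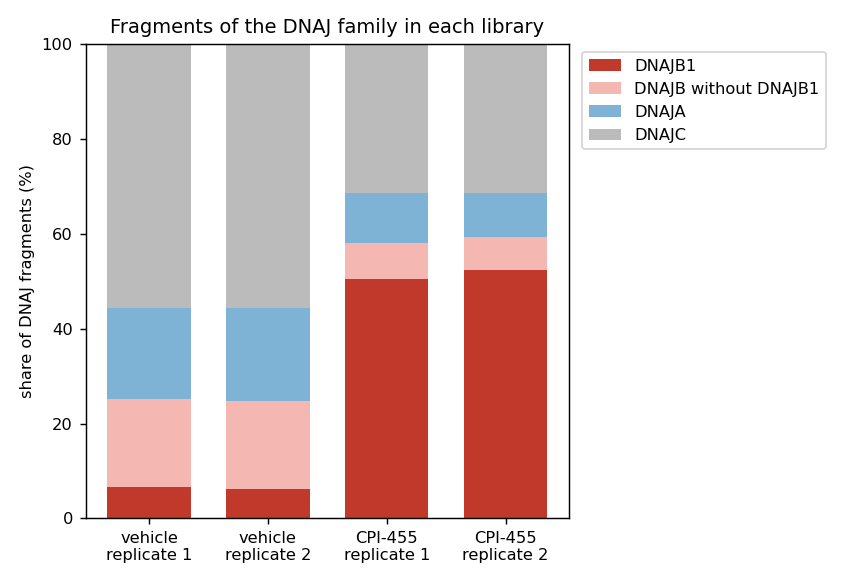
Each bar is 1 library and shows the share in percent of all fragments on the 45 DNAJ genes that fell on DNAJB1, the other DNAJB genes, the DNAJA genes and the DNAJC genes. DNAJB1 took 6.60% and 6.10% under vehicle but 50.5% and 52.4% under CPI-455, and the other 3 classes were each smaller in both CPI-455 libraries.

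Per kilobase of exon, DNAJA1 was the highest member with vehicle at 94.9 normalised CPM per kb, followed by DNAJB1 at 45.0, DNAJC8 at 43.4 and DNAJC1 at 35.7. With CPI-455 the order of levels per kb was DNAJB1 at 645, DNAJC8 at 51.2, DNAJC2 at 49.0 and DNAJA1 at 43.7. The 3 levels that follow DNAJB1 in the second order lie close together. DNAJC2 moved from rank 17 of the 41 tested members to rank 3, and DNAJC3 from rank 6 to rank 25.

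DNAJA1, a cytosolic co-chaperone of HSP70, went the other way from DNAJB1. Its counts were 5300 and 5838 under vehicle and 1067 and 597 under CPI-455, and its level fell from 259 ± 11.6 to 119 ± 1.14 normalised CPM (SD, n = 2 each). The groups did not overlap, as for 81.9% of all genes tested, and the log2 fold change was -1.12 (SE 0.11, FDR = 2.44e-05). The call rests on a change close to the 2-fold limit and was lost in 5 other settings, with values as small as -0.93 when a smooth trend of expression with the length and GC content of exons was removed from each library. DNAJA2, of the same subfamily and place in the cell, had a log2 fold change of -0.50 (FDR = 0.00586) and was not called, and with that trend removed its value was -0.07 (FDR = 0.565). DNAJA3, the DNAJA member of mitochondria, was higher with CPI-455, at 250 ± 12.4 against 131 ± 6.94 normalised CPM (SD, n = 2 each). Its log2 fold change of 0.93 (FDR = 8.54e-05) was under 2-fold. DNAJA4 was not tested, with 9 and 12 counts with vehicle and 0 in both CPI-455 libraries.

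Of the other cytosolic DNAJB members, DNAJB4 was higher under the inhibitor, with a value of 0.81 on the log2 scale (FDR = 0.00235), under 2-fold. DNAJB2 and DNAJB6, which keep aggregation-prone proteins soluble, had log2 fold changes of -0.24 and -0.25 and did not pass the test (FDR = 0.297 and 0.111). DNAJB5 had one of -0.67 with a standard error of 0.36 and did not pass either (FDR = 0.133). DNAJB13, known from sperm flagella, had at most 15 counts in any library and a log2 fold change of -0.13 with a standard error of 0.98. DNAJB8 had no fragment in any library, and DNAJB7 had 4 and 3 fragments under vehicle and 0 and 11 under CPI-455.

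The promoters of DNAJB1, DNAJA1 and DNAJB6 are shown because HSF1, the heat shock factor, binds inverted repeats of GAA, and the letters of such repeats were searched for in the RefSeq promoter windows of the family. A window spans 250 bases before to 50 after an annotated start, and 41 of the 45 members matched to 53 windows. The heat shock element of 3 GAA units in alternating orientation, here the 3-unit repeat, was found on either strand in 172 of all 35116 windows (0.49%) and in 2 member windows, those of DNAJA1 and DNAJB6. The shorter repeat GAANNTTC or TTCNNGAA was chosen after the values were seen, and its matches include those inside the 3-unit repeat. It was found in 13.5% of all windows and in 9 of the 53 member windows, which belong to 8 members. The 3 sequences are written 5′ to 3′ on the strand of the gene, each with 250 bases before the start and the first 30 after it, and capitals mark the repeats. DNAJB1 has 3 annotated starts, of which the one with most repeats is shown, at chr19:14518368-14518647 (reverse strand), while DNAJA1 lies at chr9:33025023-33025302 and DNAJB6 at chr7:157336754-157337033 (both forward strand) of GRCh38.p14.
DNAJB1: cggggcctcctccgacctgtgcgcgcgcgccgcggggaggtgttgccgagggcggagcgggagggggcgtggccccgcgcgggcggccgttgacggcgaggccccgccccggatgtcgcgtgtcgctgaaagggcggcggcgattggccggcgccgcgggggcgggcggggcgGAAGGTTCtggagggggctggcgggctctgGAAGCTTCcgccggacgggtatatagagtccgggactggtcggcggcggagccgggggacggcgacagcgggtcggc
DNAJA1: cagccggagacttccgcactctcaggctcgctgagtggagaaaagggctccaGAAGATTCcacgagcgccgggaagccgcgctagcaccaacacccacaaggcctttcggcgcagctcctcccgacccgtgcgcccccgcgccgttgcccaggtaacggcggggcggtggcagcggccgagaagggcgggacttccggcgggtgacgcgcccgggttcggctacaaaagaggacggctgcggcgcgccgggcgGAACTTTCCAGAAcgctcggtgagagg
DNAJB6: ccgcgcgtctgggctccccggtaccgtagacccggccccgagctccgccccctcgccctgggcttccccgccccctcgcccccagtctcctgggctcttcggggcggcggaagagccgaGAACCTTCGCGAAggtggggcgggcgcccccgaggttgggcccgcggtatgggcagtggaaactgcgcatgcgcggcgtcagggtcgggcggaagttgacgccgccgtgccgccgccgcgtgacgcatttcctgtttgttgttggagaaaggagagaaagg
DNAJB1, the member with the largest rise, held 2 separate short repeats in this window and no exact 3-unit repeat. Only exact letters were matched, so repeats with a mismatched unit were not counted in any window. DNAJA1, which fell, held the 3-unit repeat 3 to 15 bases after its start, and DNAJB6, which was not called, held it at positions -131 to -119 from its start. A match of letters describes the window and does not show that a factor binds there.

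DNAJC2, which forms the ribosome-associated complex with HSPA14 and also acts on chromatin, was the DNAJC member with the largest rise among those with appreciable counts. It lies on chromosome 7 from 103312474 to 103344873 (GRCh38, reverse strand). Counts of 1250 and 1199 with vehicle rose to 2585 and 1777 with CPI-455, and the level rose from 57.0 ± 3.03 to 322 ± 43.6 normalised CPM (SD, n = 2 each). The log2 value rose by 2.49 (SE 0.13, FDR = 9.66e-07) and the gene was called in all 17 other settings. HSPA14, its partner on the ribosome, had a log2 fold change of -0.85 (FDR = 3.55e-04), in the opposite direction and under 2-fold.

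DNAJC7, a co-chaperone that binds both HSP70 and HSP90, rose from 86.5 ± 2.80 to 186 ± 14.9 normalised CPM (SD, n = 2 each), from counts of 1786 and 1933 under vehicle to 1563 and 993 under CPI-455. Its log2 fold change was 1.10 (FDR = 3.88e-05), near the 2-fold limit. It was not called with library totals alone (0.92) or without CPI-455 replicate 2 (0.98). The call was also lost with no filter and with glmTreat, which tests against a 2-fold change. DNAJC25 had 313 and 332 fragments under vehicle and 313 and 206 under CPI-455. This is a rise of 1.33 on the log2 scale (SE 0.17, FDR = 1.37e-04). The readthrough gene DNAJC25-GNG10 shares all of its exon bases with its neighbours, 13.8% of the exon bases of DNAJC25 are shared, and fragments that fall there were not counted, so DNAJC25-GNG10 was at 0 in every library. DNAJC17, a factor linked to splicing, had counts of 167 and 189 under vehicle and 173 and 93 under CPI-455 and rose by a log2 fold change of 1.20 (FDR = 0.00121). It was not called with glmTreat. Of its exon bases, 26.1% are shared with another gene. DNAJC5G, known from testis, was also called higher (log2 fold change 2.70, standard error 0.85, FDR = 0.0195), but from 8 and 11 fragments under vehicle and 9 and 26 under CPI-455. Without CPI-455 replicate 2 its log2 fold change was 1.14, without vehicle replicate 1 it was 2.55 and without vehicle replicate 2 it was 2.95, and in each case the call was lost.

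**Figure D3:**
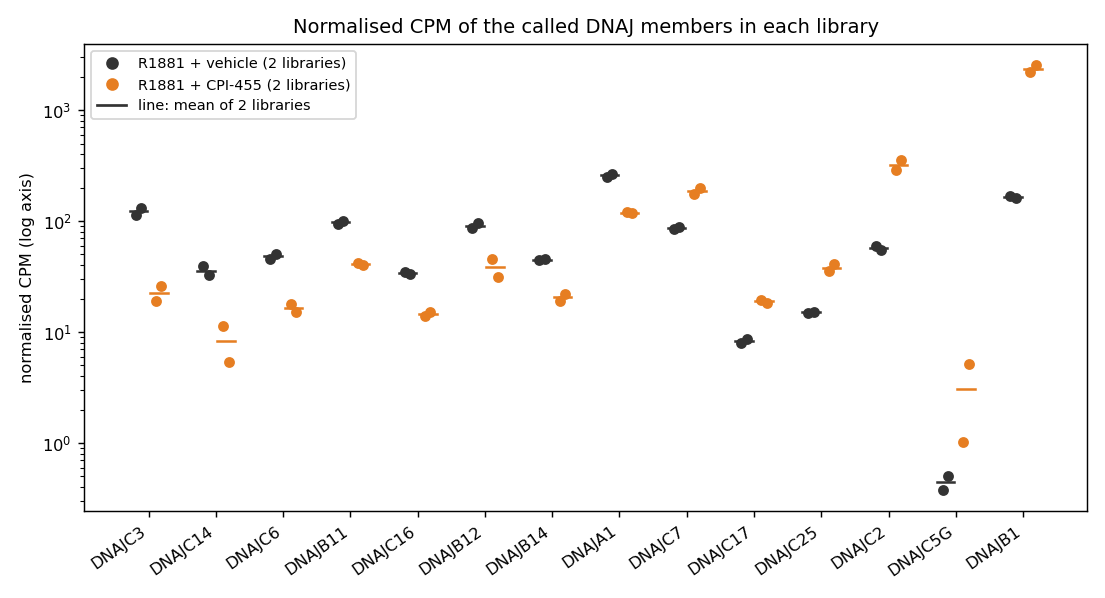
Normalised CPM on a log axis is shown in each of the 4 libraries for the 14 called members, ordered from the largest fall to the largest rise, with a line at the mean of 2 libraries. The groups do not overlap for any of the 14, as for 81.9% of all genes tested, and the CPI-455 libraries lie farthest apart for DNAJC5G, the member with the fewest counts.

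Most of the 9 members listed for the endoplasmic reticulum (ER) were lower with CPI-455. The list holds co-chaperones of BiP, the HSP70 of the ER encoded by HSPA5, and membrane members that serve ER-associated degradation. DNAJC25, called higher at 1.33, and DNAJC14, called lower at -2.03 on the log2 scale, were placed in no list by compartment. The counts that follow hold for the 9 listed genes only. Expression of 5 of the 9 was called lower, beside 21.3% of all genes and 24.4% of protein-coding genes. None was called higher, beside 21.0% and 15.6%. In the direction of lower expression 7 of 9 passed the FDR, against 32.8% of all genes and 38.7% of protein-coding genes. The median log2 fold change of the 9 was -1.14, and their summed level fell from 854 ± 35.7 to 479 ± 19.4 normalised CPM (SD, n = 2 each), a ratio of 0.561. With upper-quartile scaling 4 of the 9 were called lower and 8 were below 0. With the length and GC trend removed, 2 of the 9 were called lower, 6 passed the FDR, all 9 were below 0 and the median was -0.63. With every library thinned to the smallest total, 3 were called lower, 7 passed the FDR and the median was -0.98. Of all genes tested, 3096 of 17600 were called lower with upper-quartile scaling and 3214 of 17600 with the trend removed. With thinned libraries 3013 of 15011 genes were called lower.

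DNAJC3, or p58IPK, a BiP co-chaperone of the ER lumen, fell more than any other member. It lies on chromosome 13 from 95677139 to 95794989 (GRCh38, forward strand). Its counts were 2408 and 2862 under vehicle and 171 and 131 under CPI-455. The level fell from 123 ± 12.1 to 22.6 ± 4.77 normalised CPM (SD, n = 2 each), which is 5.51-fold lower, with a log2 fold change of -2.46 (SE 0.17, FDR = 3.40e-06). It was called in all 17 other settings, with values from -2.71 to -1.99.

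DNAJB11, a soluble BiP co-chaperone, had 1990 and 2203 fragments under vehicle and 371 and 201 under CPI-455, and a log2 fold change of -1.26 (FDR = 3.24e-05). The ER membrane proteins DNAJB12 and DNAJB14, whose J domains face the cytosol, had log2 fold changes of -1.22 and -1.14 (FDR = 2.75e-04 and 2.66e-04). DNAJB12 counts were 1833 and 2087 under vehicle and 407 and 158 under CPI-455, and DNAJB14 counts were 937 and 988 under vehicle and 168 and 112 under CPI-455. For each of the 3 genes both CPI-455 libraries lay below both vehicle libraries, as for 42.8% of all genes tested. DNAJC16 had 731 and 723 fragments under vehicle and 125 and 76 under CPI-455, and its log2 fold change was -1.22 (FDR = 2.61e-04). Of these 4 members, DNAJB12 was still called with the length and GC trend removed, whereas DNAJB11, DNAJC16 and DNAJB14 then had log2 fold changes of -0.80, -0.78 and -0.63. DNAJB14 was also not called with upper-quartile scaling (-0.96), thinned libraries or glmTreat, DNAJC16 with thinned libraries (-0.98) or glmTreat, and DNAJB12 with glmTreat, which tests against a 2-fold change.

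The listed ER members that were not called also had negative values, except that DNAJC1 was at 0.06 with upper-quartile scaling and at 0.02 without CPI-455 replicate 1. DNAJC18 had 843 and 1027 fragments under vehicle and 243 and 121 under CPI-455, with a log2 fold change of -0.75 (FDR = 0.00347). DNAJC10, or ERdj5, which reduces disulfide bonds of misfolded proteins, had 6409 and 6462 fragments under vehicle and 1813 and 1077 under CPI-455 and a log2 fold change of -0.52 (FDR = 0.00211). Both passed the FDR at less than 2-fold. DNAJB9, or ERdj4, which is induced by ER stress, had 607 and 772 fragments under vehicle and 188 and 147 under CPI-455, and its log2 fold change of -0.37 (SE 0.20) did not pass the test (FDR = 0.141). DNAJC1 had 1754 and 2085 fragments under vehicle and 653 and 463 under CPI-455, with a log2 fold change of -0.12 (FDR = 0.502). The libraries of both groups overlapped for DNAJB9 and DNAJC1 after normalisation. The ER stress element, a CCAAT box with a CCACG box at a fixed distance, searched on both strands, was found in 0.0769% of all promoter windows and in none of the member windows. An exact match, found in 27 of 35116 windows, is so rare that its absence from 53 windows cannot show that these genes lack such an element.

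**Figure D4:**
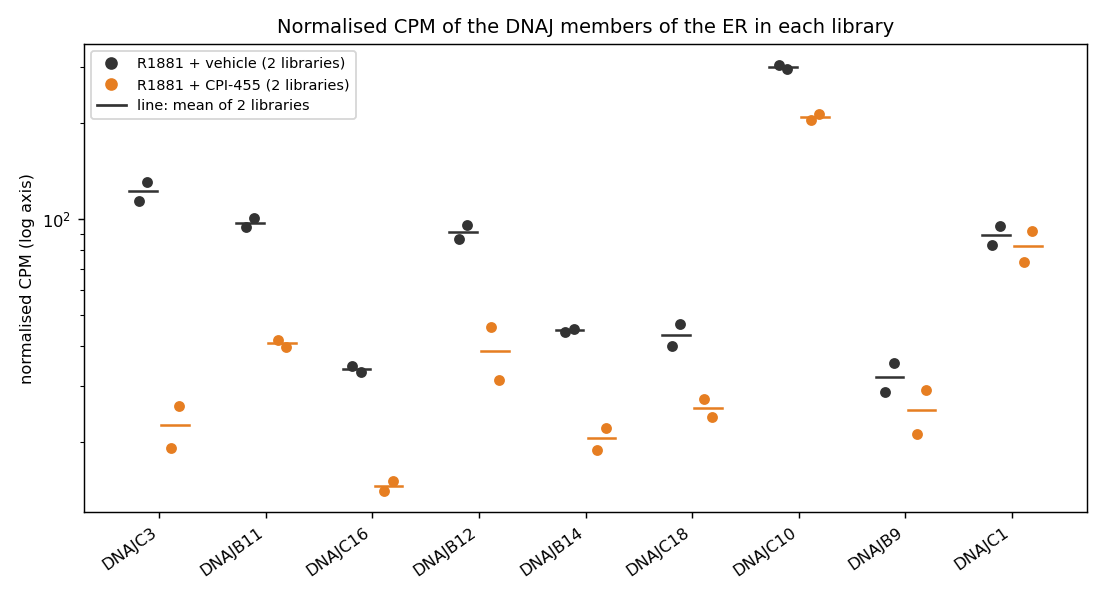
Normalised CPM on a log axis is shown in each of the 4 libraries for the 9 listed DNAJ members of the ER, ordered from the largest fall to the smallest, with a line at the mean of 2 libraries. Both CPI-455 libraries lie below both vehicle libraries for 7 of the 9, the exceptions being DNAJB9 and DNAJC1, where 42.8% of all genes tested lie that way and 81.9% do not overlap in either direction.

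Of 2 other DNAJC members that fell, DNAJC6 is auxilin, which recruits HSPA8 to strip clathrin from vesicles. Its counts were 956 and 1110 under vehicle and 158 and 76 under CPI-455, with a log2 fold change of -1.54 (SE 0.17, FDR = 5.35e-05). GAK, the other auxilin of human cells, which has a J domain but a different name, rose by a log2 fold change of 1.25 (FDR = 1.86e-05). Both genes were called in all 17 other settings. DNAJC14 had 827 and 707 fragments under vehicle and 100 and 27 under CPI-455, and its log2 fold change was -2.03 (SE 0.28, FDR = 2.16e-04). Its value is less sure, since 57.4% of its exon bases are shared with another gene and fragments there were not counted.

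None of the 7 mitochondrial members was called, beside 42.4% of all genes called either way, and their median log2 fold change was -0.01. DNAJA3 was the one that passed the FDR in the direction of higher expression, and DNAJC30 passed it in that of lower expression (log2 fold change -0.97, FDR = 0.00883). DNAJC30 was called in 6 of the 17 other settings and DNAJA3 in 3. DNAJC19 and DNAJC15, which belong to the import motor of the inner membrane, had log2 fold changes of 0.02 and 1.07, the latter with a standard error of 0.87 from 28 and 10 fragments under vehicle and 6 and 17 under CPI-455. DNAJC4, DNAJC11 and DNAJC28 had values of -0.01, -0.47 and -0.61, and none of these 5 passed the test (FDR = 0.0556 for DNAJC11 and higher for the others). Of the 6 members of the nucleus, RNA and ribosomes, DNAJC2 and DNAJC17 were called higher, beside 21.0% of all genes and 15.6% of protein-coding genes. DNAJC9, a co-chaperone of histones, and DNAJC21, which acts in maturation of the large ribosomal subunit, had log2 fold changes of -0.83 and -0.96, which passed the FDR at less than 2-fold. DNAJC8 and DNAJC24 had values of 0.24 and 0.04 and did not pass.

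Of the vesicle members, DNAJC5, the cysteine string protein of secretory vesicles, had a log2 fold change of -0.84 (FDR = 3.14e-04), and DNAJC13, which acts on endosomes, had one of 0.54 (FDR = 0.0162), both under 2-fold. DNAJC27 and DNAJC5B had values of -0.22 and -0.69, which did not pass the test, and DNAJC5B had at most 20 counts in any library. DNAJC12, a partner of the aromatic amino acid hydroxylases, had a log2 fold change of 0.69 (FDR = 0.0322), and DNAJC22 had one of -0.64 (FDR = 0.124).

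The calls of several members depended on the processing or on 1 library. DNAJB1, DNAJC2, DNAJC25, DNAJC3, DNAJC14 and DNAJC6 were called in all 17 other settings. Without CPI-455 replicate 1, DNAJB5, DNAJC15, DNAJC21, DNAJC22 and DNAJC30 were also called, with log2 fold changes of -1.51, 1.90, -1.24, -1.10 and -1.05, as was DNAJB7, which was then tested, with 3.66. DNAJC21 was called without vehicle replicate 1 as well, at -1.10, and DNAJC28 without CPI-455 replicate 2, at -1.12. DNAJA4 was then tested and also called lower, from 9 and 12 counts against 0. With DESeq2, with no filter and with library totals, DNAJC21 was called at -1.01, -1.12 and -1.15 and DNAJC30 at -1.01, -1.12 and -1.16, so that 10, 10 and 12 members were called lower. Library totals also added DNAJC5 at -1.03 and DNAJC9 at -1.02, and upper-quartile scaling added DNAJA3 at 1.11. With the length and GC trend removed, DNAJA3, DNAJB4 and DNAJC13 were called higher, with values of 1.17, 1.16 and 1.06, and DNAJC30 was called lower, with a value of -1.17.

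**Figure D5:**
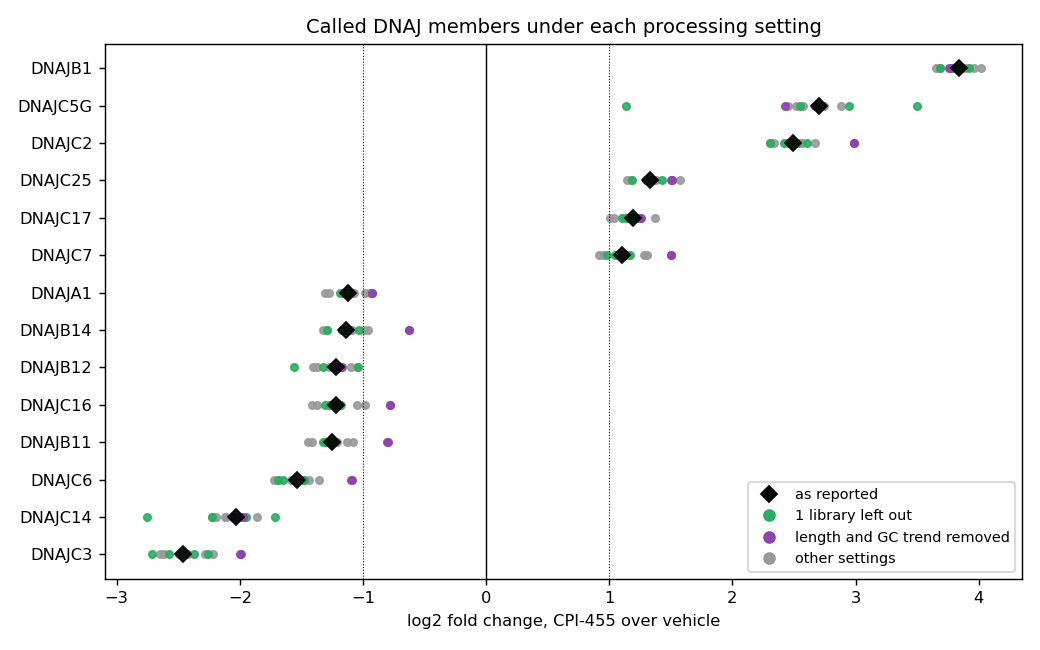
The log2 fold change of CPI-455 over vehicle is plotted for the 14 called members as reported (diamonds), with 1 library left out, with the length and GC trend removed, and in the other settings, with dotted lines at a 2-fold change. DNAJB1 stays between 3.65 and 4.02, DNAJC5G spans 1.14 to 3.50, and DNAJA1, DNAJB14, DNAJC16 and DNAJB11 cross the 2-fold line when the trend is removed.

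Exon length and GC content of the called members are given as a description. The median exon length was 4653 bases for the 6 members called higher and 5804 for the 8 called lower, beside 4292 for all genes tested and 5068 for the protein-coding ones. Median exon GC content was 47.4% and 43.1%, beside 48.5% over all genes tested. Among the called members, exon length ranged from 2350 to 9373 bases in those called higher and from 2730 to 13078 in those called lower, so that the ranges overlap.

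DNAJ proteins act with HSP70 and its cofactors, and 35 of 36 listed partner genes were tested. Of the 11 tested HSP70 genes, 4 were called higher and 2 lower, beside 21.0% and 21.3% of all genes. The 2 called lower, named after their values were seen, were HSPA13 at -2.99 and HSPA2 at -2.09 on the log2 scale (FDR = 8.40e-07 and 0.00163). HSPA8, the constitutive HSP70 of the cytosol, rose by a log2 fold change of 2.55 (FDR = 5.83e-07) and HSPA1B, a heat-inducible one, by 5.98 (FDR = 7.20e-08). HSPA6, named after its value was seen, was also called higher, at 3.58 on the log2 scale (FDR = 1.64e-05). HSPA1A, called higher too, had 5 and 2 fragments under vehicle and 189 and 56 under CPI-455. HSPA1A is near-identical to HSPA1B, so that fragments matching both genes were not counted and each level is uncertain. HSPA5, which encodes BiP, had a log2 fold change of 0.73 (FDR = 2.13e-04), in the opposite direction to its DNAJ partners DNAJC3 and DNAJB11. HSPA9, the mitochondrial HSP70, had one of -0.63 (FDR = 5.74e-04).

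Of 14 nucleotide exchange factors, which release ADP from HSP70 and so end the cycle that a J protein starts, none was called higher and 5 were called lower, beside 21.0% and 21.3% of all genes. Over all partner lists 6 of 35 were called higher and 9 lower, shares of 17.1% and 25.7% that lie near this background. HYOU1, an exchange factor of the ER, fell by 2.51 on the log2 scale (FDR = 2.87e-06), while SIL1, the other one of the ER, had a value of -0.05 (FDR = 0.831). GRPEL1, of mitochondria, had a log2 fold change of -1.24 (FDR = 5.86e-04). It was not called without CPI-455 replicate 2 (-0.99), with the length and GC trend removed (-0.98) or with glmTreat. GRPEL2, named after its value was seen, was at -2.13 (FDR = 2.12e-06) and was called in all 17 other settings. HSPH1 and BAG3, of the cytosol, had values of 0.61 (FDR = 0.00206) and 0.36 (FDR = 0.0604). BAG4 and BAG5, named after their values were seen, were called lower at -1.70 and -2.09 (FDR = 6.44e-06 and 1.93e-05). Both were also called in all 17 other settings. Of the 14 exchange factors, 1 passed the FDR in the direction of higher expression and 7 in that of lower expression. Over all genes tested 29.8% and 32.8% did so, and over protein-coding genes 26.3% and 38.7%. Of the 6 other cofactors, STUB1, a ubiquitin ligase that acts on HSP70 clients, was called higher, beside 21.0% of all genes. Of the J-domain genes with other names beside GAK, SEC63, the J protein of the ER translocon, was called lower at -1.30 on the log2 scale (FDR = 1.25e-05), and HSCB, of iron-sulfur cluster assembly, had one of -0.10 (FDR = 0.751). SEC63 was lower by 0.76 on the log2 scale with the length and GC trend removed and was then not called.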

How the data were processed

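RNA-seq fragment counts of 4 LNCaP libraries, 2 with R1881 and vehicle and 2 with R1881 and CPI-455, were used. Per the file headers and the study's methods, the authors trimmed reads with Trim Galore, used STAR for alignment to GRCh38, assigned fragments to exons by featureCounts v1.5.0-p1 (annotation of Ensembl release 83) and deposited raw counts without normalization. Strand was not used, and fragments matching several places or genes were not counted, which lowers overlapping genes and those with near-identical copies. The family has 33 annotated pseudogenes, which together held 47 to 122 fragments per library.

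Groups were taken from the sample titles. Genes were matched to GENCODE release 44 by identifier (56558 of 60675). Counts were analysed with edgeR 4.0.16 in R 4.3.3 (TMM, filterByExpr with a minimum of 10 counts, glmQLFit and glmQLFTest, no covariates). FDR is the Benjamini-Hochberg value over all genes tested. CPM are counts scaled to the TMM-adjusted library size. Depth was 19623553 and 20690819 fragments with vehicle and 9522920 and 5401588 with CPI-455, and 3 counts correspond to 0.145 to 0.555 CPM. The p-values measure the spread between these cultures. Nothing beyond a shared number links same-numbered cultures.

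The alternatives were RLE, upper-quartile and total-count scaling, TMM without mitochondrial genes and MALAT1, 2 other filters, DESeq2 1.42.0, edgeR's likelihood-ratio test and glmTreat, a replicate block, a smooth removed per library for length and GC of the exons (mgcv 1.9.3) with and without the block, thinning, and leaving out each library. The members and gene lists were chosen with earlier results of these data known. Named in the text are all DNAJA and DNAJB members, DNAJC members called or in the ER list, the others by value, and a fixed set of partners. Further partners were named after their values were seen. The short GAA repeat and the promoters shown were chosen after the values were seen. Protein sequences were not analysed here, and 1 partner gene is not reported here.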

Additional observations from a re-analysis of the deposited data

How the results depend on the processing

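Counts of members called higher kept within 1.5 times of 6 in all other settings except glmTreat against a 2-fold change, which called 3, and leaving out each library gave 4 to 8. The 8 called lower became 4 with glmTreat, 5 with the length and GC trend removed, 5 with that trend and the replicate block, and 5 with thinned libraries, and 8 to 12 with each library left out. For the listed ER members, the 5 called lower became 2 with glmTreat, 2 and 2 with the trend removed without and with the block, and 3 with thinned libraries, and stayed 5 with each library left out. Of all 17600 genes tested, 3756 were called lower, but 2350 with glmTreat and 3214 and 3237 with the trend removed without and with the block. With thinned libraries 3013 of 15011 genes were called lower. Calls of higher expression over all genes numbered 3698, and 2455 with glmTreat. How far the member counts follow those of all genes was not tested. The replicate block gave 6 higher and 8 lower, and the same-numbered libraries deviated together with a correlation of 0.04, so the numbers were not taken as pairs. The median of the DNAJA genes (-0.50) was -0.33 with upper-quartile scaling, -0.69 with library totals, -0.97 without a filter, -0.85 with DESeq2 (both with DNAJA4 tested), -0.072 with the trend removed and -0.071 with trend and block, -0.38 thinned, and -0.90 to -0.50 with a library left out (DNAJA4 also tested without either CPI-455 library). The DNAJB median (-0.31) was -0.13, -0.50, -0.40, -0.46, -0.18 and -0.39 with upper-quartile scaling, totals, no filter, the block, the trend removed and thinning, and -0.61 to -0.30 with a library left out. The DNAJC median (-0.35) was -0.17, -0.54 and -0.50 with upper-quartile scaling, totals and no filter, and -0.41 to -0.12 with a library left out. Those scalings moved the median of all genes from -0.04 to 0.14 (upper quartile) and -0.23 (totals), so shifts of that size are shared by all genes. Without CPI-455 replicate 1, the deeper CPI-455 library, 12 members were called lower. The partner counts of 6 higher and 9 lower stayed within 1.5 times in all 17 other settings. A fit that leaves out 1 library assumes that the lone sample varies like the other group. Low counts with CPI-455 limit DNAJC5G, DNAJC15, DNAJC5B and DNAJB13, for which no firm direction can be given.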

Other observations

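Of the genes named after DNAJA, DNAJB or DNAJC members that do not code for protein, 33 are annotated pseudogenes and 8 are long non-coding RNAs, and 3 of each kind passed the filter on low counts. DNAJC3-DT, a non-coding RNA annotated as a divergent transcript of DNAJC3, had 31 and 36 fragments under vehicle and 54 and 41 under CPI-455. Its log2 fold change of CPI-455 over vehicle was 2.17 (SE 0.41, FDR = 0.00148, edgeR's quasi-likelihood test), in the opposite direction to the value of -2.46 for DNAJC3, and DNAJC3 shares no exon base with another gene. DNAJC9-AS1 (ENSG00000227540), annotated as antisense to DNAJC9, had 63 and 54 fragments under vehicle and 54 and 34 under CPI-455 and a log2 fold change of 1.22 (FDR = 0.0162), where DNAJC9 had one of -0.83. Strand was not used in counting, so fragments from a gene and its antisense partner cannot be told apart where they overlap, and 29.1% of the exon bases of DNAJC9 are shared with another gene. The pseudogene DNAJC19P5 had 1 and 4 fragments under vehicle and 25 and 16 under CPI-455 (log2 fold change 4.58, FDR = 9.05e-04), while its parent DNAJC19 had a value of 0.02. The pseudogene DNAJB6P1 had 95 and 112 fragments under vehicle and 15 and 13 under CPI-455 (log2 fold change -1.22, FDR = 0.0304), beside -0.25 for DNAJB6. These 4 transcripts were chosen after their values were seen, and reads of a parent gene placed on a pseudogene were not tested.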
